A study of Arabidopsis thaliana with 48 samples.

Results

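Among 22739 probe sets measured in Arabidopsis roots, 88 stood higher on ACC at every time from 4 h after transfer onward and were less than 0.6 higher on average at the earlier times. ACC (1-aminocyclopropane-1-carboxylic acid) is the direct precursor of ethylene. The 88 were chosen by their measured values: the mean of the ACC arrays exceeded the mean of the control arrays by at least 0.8 on the log2 scale at each of 4, 8, 12 and 24 h, and the mean difference over 0.5, 1 and 2 h was under 0.6. All differences of the 88 at 0.5 to 24 h therefore entered the choice and are given as descriptions, without tests. Of the 88 probe sets, 40 matched 1 gene each in the platform annotation (40 different genes), 2 matched several genes and 46 were not listed in it, so those 48 are counted but not named.

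The data came from roots of 6-day-old Arabidopsis thaliana seedlings, whose genotype is not given in the sources used here. Seedlings were grown in continuous light on a nylon mesh over medium with sucrose, and the mesh was then moved to fresh medium without ACC (control) or with 1 µM ACC. Roots were taken within minutes of the move (0 h) and at 0.5, 1, 2, 4, 8, 12 and 24 h. Each of the 16 groups had 3 Affymetrix arrays, 48 in all, and every difference below is ACC minus control of the same time, in log2 signal, with n = 3 arrays per group. The labels do not state that replicates were separate cultures, so the spread between arrays may be partly technical.

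Ethylene is made from ACC by ACC oxidases and perceived by receptors on the endoplasmic reticulum. Binding of the gas relieves a block on EIN2, which lets the transcription factors EIN3 and EIL1 act. In roots, ethylene and its precursor are known to shorten the elongation zone, to promote root hairs and to change cell walls and defence proteins.

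Some arrays stood apart. Replicate 3 of ACC at 0.5 h differed from the mean of its 2 companions with an SD of 0.526 over all probe sets, against 0.180 to 0.447 (median 0.282) for the other arrays. One label conflict touched the early threshold: replicate 3 of ACC at 1 h is named auxin by its source name and ACC by its title, and was kept as ACC. Applying the rule without it gave 92 probe sets, 85 of them shared with the 88. Array means were almost equal (7.699 to 7.704), so each difference is relative to the average probe set. In whole roots, fewer cells of a type and less RNA per cell cannot be told apart.

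As a median, the 88 were level with control at 0 h, and the step from 2 to 4 h, which the rule imposes, was the largest between neighbouring times. Single probe sets differed earlier, from -1.38 to 1.97 at 0.5 h and from -0.67 to 1.26 at 2 h. The median difference was 0.02 at 0 h, 0.25 at 0.5 h, 0.26 at 1 h and 0.39 at 2 h. It then stood at 1.09 at 4 h, 1.31 at 8 h, 1.33 at 12 h and 1.43 at 24 h, while the median over all 22739 probe sets lay between -0.02 and 0.01 at all 8 times. The mean of the 4 late differences, called the late difference here, ran from 0.89 to 2.68 with a median of 1.29, a fold of 1.86 to 6.41 with a median of 2.44. It was at least 2 in 6 probe sets, from 1 to under 2 in 71 and under 1 in 11. The difference was largest at 24 h in 40 probe sets, at 12 h in 24, at 8 h in 9 and at 4 h in 15. From 4 to 24 h it grew by at least 0.5 in 35, shrank by at least 0.5 in 5 and moved less in 48. The rule asks only for a lower bound at each late time, so the spread of these shapes was free to vary above that bound.

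**Figure D1:**
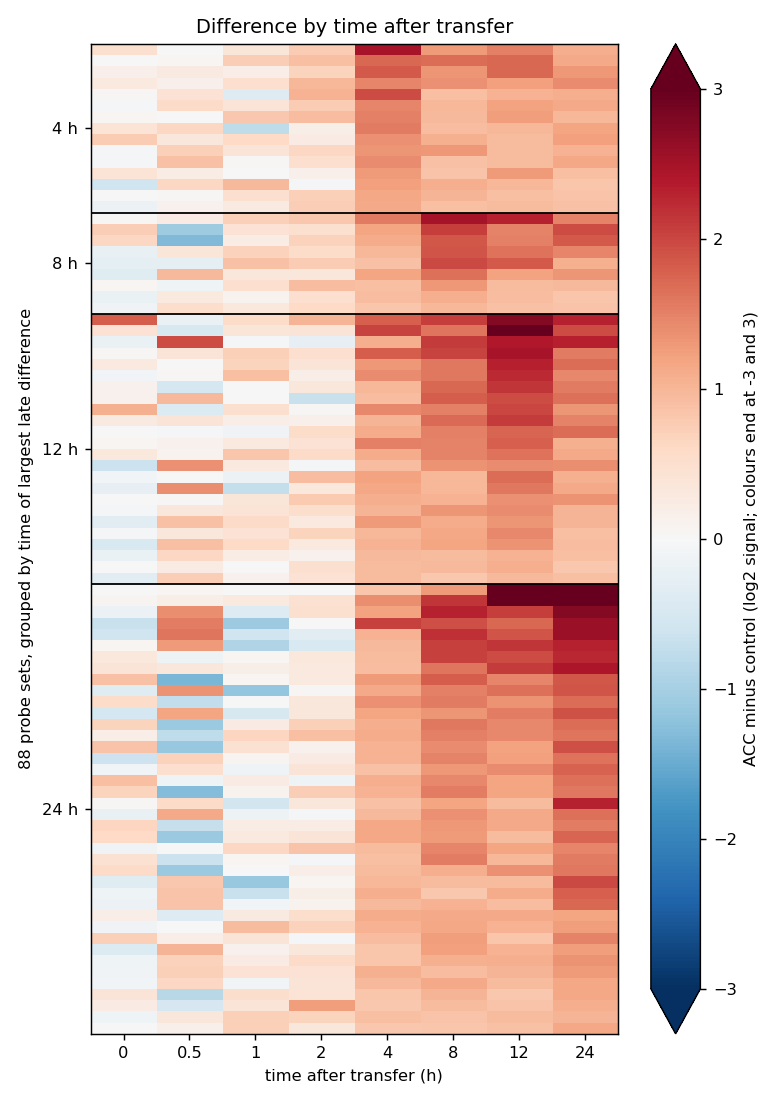
Each row is 1 of the 88 probe sets and each column a time after transfer in hours, coloured by ACC minus control in log2 signal (means of 3 arrays each), with rows grouped by the time of the largest late difference. The block with its largest difference at 24 h holds 40 rows, and the mixed red and blue cells at 0.5 h show how much the probe sets differed there before 4 h.

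On each array separately, the median of the 88, each centred on its own mean over 48 arrays, showed the same course. It lay between -0.56 and -0.44 on the 6 arrays of 0 h. From 4 to 24 h it lay between 0.42 and 1.25 on the 12 ACC arrays and between -0.69 and -0.05 on the 12 control arrays. The lowest late ACC array was replicate 2 of 4 h, and the highest late control array was replicate 2 of 12 h. For single probe sets, all 3 ACC arrays lay above all 3 control arrays in 64 of 88 (72.7%) at 4 h, 79 (89.8%) at 8 h, 72 (81.8%) at 12 h and 78 (88.6%) at 24 h. Over all probe sets the same was true of 9.21% at 4 h, 11.6% at 8 h, 11.8% at 12 h and 9.75% at 24 h; since the rule used these contrasts, nothing is read from the contrast with the 88. The ACC arrays were separate at all 4 late times in 47 probe sets, at 3 in 30, at 2 in 5, at 1 in 5 and at none in 1, AT1G26380.

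**Figure D2:**
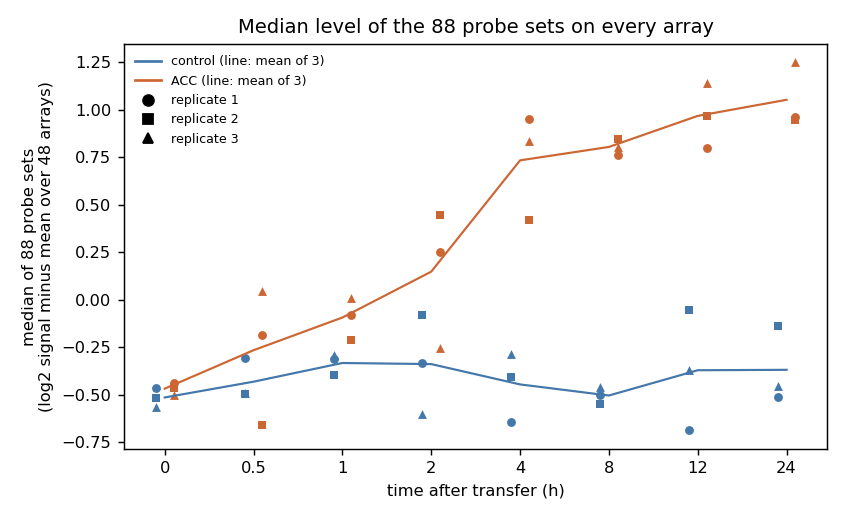
Points are arrays, plotted as the median over the 88 probe sets of log2 signal minus each probe set's mean over 48 arrays, against time after transfer in hours (spaced evenly), with lines through the mean of 3 arrays. From 4 h on, the 12 ACC arrays (0.42 to 1.25) lie above the 12 control arrays (-0.69 to -0.05), and at 0 h the 6 arrays lie together.

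The arrays of 0 h were the only ones the rule did not use. In limma with Benjamini-Hochberg adjustment over all probe sets, 0 of 22739 (0.0%) passed an adjusted p of 0.05 there, and the lowest adjusted p among the 88 was 0.9999. At an unadjusted p of 0.05, 0 of the 88 and 324 of all probe sets (1.43%) passed. All 3 ACC arrays lay above all 3 control arrays in 4 of the 88 (4.55%), beside 3.88% of all probe sets. Their differences at 0 h were nevertheless broad: they ranged from -0.67 to 1.83 with an SD of 0.43, against an SD of 0.16 over all probe sets, with 15 at least 0.5 higher on ACC and 6 at least 0.5 lower. An example is AT4G12500, whose control arrays read 7.53, 9.08 and 5.64 and whose ACC arrays read 7.83, 9.08 and 8.54, a difference of 1.07 with 1 low control array.

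Secreted and defence-related proteins included the 2 genes with the largest late differences of the 40. There were 8 of them, with late differences from 1.42 to 2.68 (median 1.57), and in 6 the difference was largest at 24 h. Of the genes described in the following, PDF2.5, BGLU46, AT3G13610, AT1G26240, AT1G14890, AT1G53440, AT4G18250, AT2G18690 and the enzymes and transporters at the end were picked after their values were seen.

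AT4G33720, a member of the CAP family to which the pathogenesis-related protein PR-1 belongs, had the largest late difference of all. At 4 h its control arrays read 5.83, 5.88 and 6.80 and its ACC arrays 7.05, 5.90 and 8.03. By 24 h control read 5.83, 6.15 and 6.17, and ACC 10.55, 9.98 and 11.62. The groups overlapped at 4 h through 1 ACC array that was still at the control level and 1 raised control array, and were far apart at 12 and 24 h. Group means at 24 h were 10.72 ± 0.83 on ACC and 6.05 ± 0.19 on control (SD, n = 3), a difference of 4.67, or 25.4-fold. The difference was 0.82 at 4 h, 1.28 at 8 h and 3.95 at 12 h, so most of it appeared after 8 h.

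A second CAP gene, AT4G07820, followed with a late difference of 2.49. Its arrays at 4 h read 7.03, 7.97 and 7.66 on control and 9.38, 7.41 and 10.08 on ACC, and those at 24 h read 7.44, 8.75 and 7.85 against 11.08, 11.12 and 11.54. As with AT4G33720, replicate 2 of ACC at 4 h had not left the control range, whereas the groups were separate at 8, 12 and 24 h. The third CAP gene, AT4G25790, had a smaller late difference of 1.49: ACC read 9.65, 9.39 and 9.29 at 4 h against 7.37, 7.95 and 8.88 on control, and its difference stayed between 1.35 and 1.68. Its groups were separate at all 4 late times.

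PDF2.5, a small cysteine-rich defensin, was strongly expressed already on control medium. At 24 h control read 9.87, 9.98 and 9.76 and ACC 11.58, 11.56 and 11.28, and the groups did not overlap at any late time. Group means at 24 h were 11.47 ± 0.17 on ACC and 9.87 ± 0.11 on control (SD, n = 3), and its late difference was 1.42. AT4G16260, of the glycosyl hydrolase family that holds the defence-related beta-1,3-glucanases, read 10.75, 11.39 and 10.20 on control and 12.70, 12.70 and 13.20 on ACC at 12 h, when its difference was largest at 2.09. AT4G12500, of the bifunctional inhibitor and lipid transfer protein family, had a late difference of 1.57 on control arrays that varied widely; it was 0.65 without replicate 3 and 2.18 without replicate 2.

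AT1G26380 encodes a berberine bridge enzyme-like oxidase linked to the making of indole defence compounds. At 24 h its control arrays read 7.34, 10.50 and 9.09 and its ACC arrays 10.47, 11.27 and 12.13. The groups overlapped at each of the 4 late times although the means differed by 0.97 to 2.32, each time through 1 array of either medium that lay in the range of the other. Its late difference was 1.87, and 1.08 with an RNA quality covariate described with the control probes. AT1G72900, a protein with the TIR domain of immune receptors, was steadier, with 7.45, 8.35 and 7.56 on control and 9.32, 9.34 and 10.43 on ACC at 24 h and no overlap at any late time.

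Cell wall genes formed a second group of 8, with late differences from 0.89 to 1.97 (median 1.40) and 6 that were largest at 24 h. Class III peroxidases, which oxidise phenolics and loosen or cross-link the wall, made up 4 of them. AT5G64110 read 6.49, 7.11 and 7.38 on control and 8.71, 8.12 and 9.60 on ACC at 4 h, and 6.39, 7.01 and 7.17 against 9.59, 9.37 and 9.07 at 12 h. The groups were separate at all late times, with the largest difference, 2.48, at 12 h and 1.55 left at 24 h. AT1G71695 was separate as well and grew from 0.88 at 4 h to 1.77 at 24 h.

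The other 2 peroxidases varied more between arrays. AT5G39580 read 7.64, 9.54 and 8.44 on control and 10.49, 10.88 and 11.93 on ACC at 24 h, but its groups overlapped at 12 h through 1 control array at 9.69. AT3G49960, a peroxidase of root hair cells, read 8.80, 9.92 and 10.78 on control and 11.12, 11.03 and 10.62 on ACC at 4 h. Those groups overlapped; at 24 h, with control at 9.29, 9.27 and 8.87 and ACC at 10.82, 10.86 and 10.74, they did not.

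XTH26, a xyloglucan endotransglucosylase/hydrolase of root hairs, read 6.00, 6.64 and 8.06 on control and 8.12, 7.48 and 7.95 on ACC at 4 h. At 24 h control read 6.66, 6.20 and 5.89 and ACC 8.43, 8.69 and 8.42. Replicate 3 of the control reached the ACC level at 4 h, and the groups were separate from 8 h on, with differences of 2.04, 1.97 and 2.26. The remaining wall genes were the extensin-like AT1G26240 (late difference 1.33) and AT5G06630 (1.12, and 0.67 with that covariate), and AT1G14890, of the pectin methylesterase inhibitor family (0.89). The probe set of AT5G06630 is of a type that can bind related transcripts, so its signal may be shared with other extensin-like genes.

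**Figure D3:**
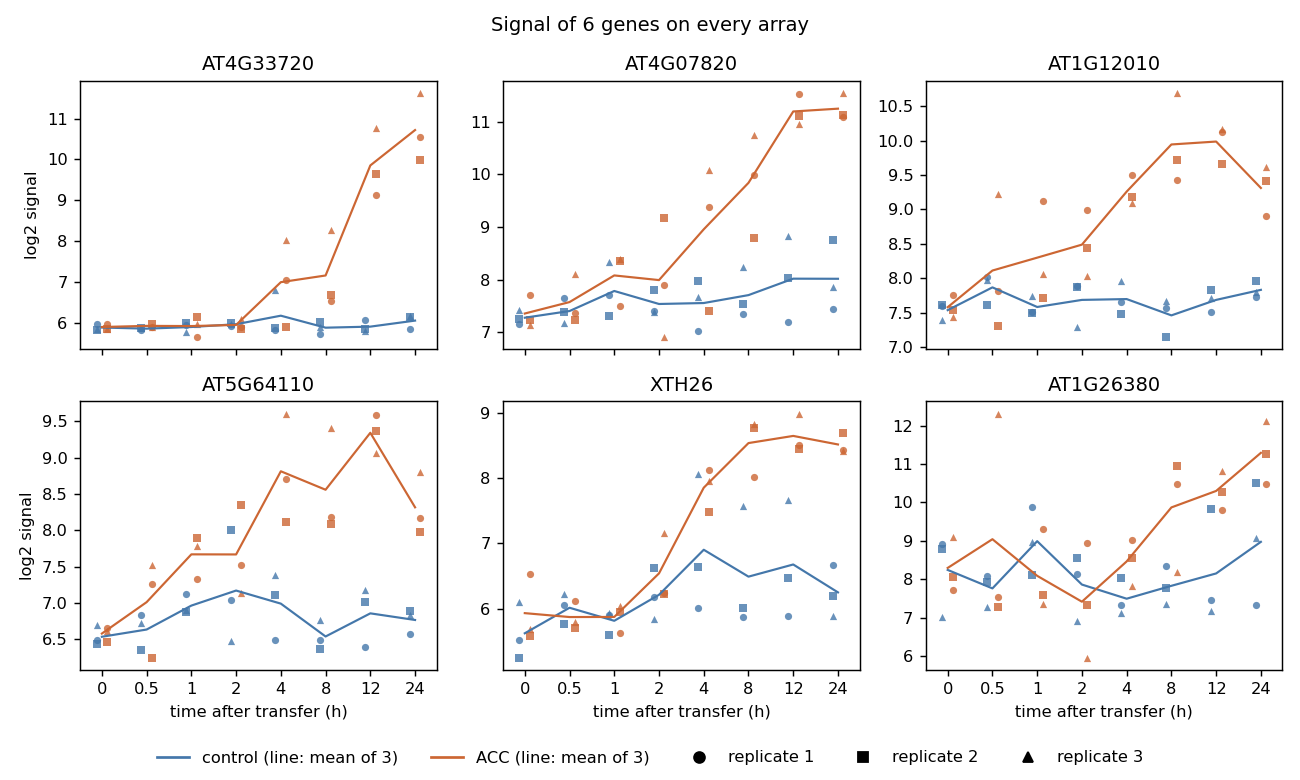
Log2 signal of 6 genes on all 48 arrays against time after transfer in hours (spaced evenly), with control in blue, ACC in orange, marker shapes for replicates and lines through the mean of 3. AT5G64110 and AT1G12010 separate at every late time, AT4G33720 moves apart mainly after 8 h, and the groups of AT1G26380 overlap throughout.

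Of the 40 named genes, 1 was placed in the ethylene pathway: AT1G12010, an ACC oxidase, the enzyme that turns ACC into ethylene. It read 7.66, 7.48 and 7.96 on control and 9.50, 9.18 and 9.10 on ACC at 4 h, and 7.57, 7.14 and 7.67 against 9.43, 9.71 and 10.69 at 8 h. The groups were separate at all 4 late times. Its difference was 0.72 at 1 h, 0.80 at 2 h, 1.56 at 4 h, 2.49 at 8 h, 2.30 at 12 h and 1.48 at 24 h. With an early mean of 0.588 it is among the members nearest the early threshold.

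Among 3 genes of phenylpropanoid metabolism, late differences ran from 1.10 to 2.09. CCOAMT, a caffeoyl-CoA O-methyltransferase, read 6.04, 8.36 and 7.82 on control and 9.12, 10.24 and 11.15 on ACC at 24 h. BGLU46, a glucosidase that acts on glucosides of lignin precursors, read 9.49, 9.90 and 8.72 against 10.62, 10.93 and 11.55. AT3G13610, the feruloyl-CoA hydroxylase that opens the route to scopoletin and other coumarins, read 10.84, 12.34 and 11.27 against 12.59, 12.40 and 12.93. In all of these the groups were separate at 24 h, narrowly in AT3G13610, and replicate 2 was the highest control array. At 12 h the groups of CCOAMT overlapped (lowest ACC array 8.32, highest control array 8.38), as did those of AT3G13610 (11.8 and 11.98). AT3G13610 also overlapped at 8 h (11.04 and 11.23), while BGLU46 was separate at all late times.

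The 3 receptor-like kinases had late differences of 1.59 (AT1G05700), 1.09 (AT1G53440) and 1.07 (AT4G18250). AT1G05700 had the largest 4 h difference of the 88: its control arrays read 6.997, 7.58 and 6.38 and its ACC arrays 9.47, 8.95 and 9.98. At 24 h, with control at 6.93, 8.10 and 7.43 and ACC at 8.96, 7.83 and 8.90, the groups overlapped. Its difference moved by -1.40 between 4 and 24 h, the lowest such value among the 88, whereas AT4G33720 had the highest, 3.85.

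Of the rest, 5 encode other enzymes or transporters, with late differences from 0.98 to 1.24 and none largest at 24 h. They are the glutaredoxin AT4G15690 (1.24), the amino acid transporter AT1G25530 (1.21), the aspartyl protease AT3G51350 (1.08), the short-chain dehydrogenase AT4G03140 (1.03) and the branched-chain aminotransferase AT1G50110 (0.98). The last 12 are given no role here and ran from 0.94 to 1.54. AT3G54040 led them at a high level, with 10.46, 11.47 and 10.98 on control and 12.94, 12.35 and 13.13 on ACC at 4 h. AT1G21320 was near the bottom of the signal range on control, at 5.59, 5.86 and 5.37, and read 7.04, 6.72 and 7.58 on ACC at 4 h. Both were separate at all late times. By position, the 40 genes lay on chromosomes 1 (16), 2 (1), 3 (6), 4 (9) and 5 (8), and no pair lay within 10 protein-coding genes of each other.

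The ACC level moved more than the control level. Averaged over 4 to 24 h, the ACC level exceeded the ACC level at 0 h in 88 of 88 probe sets, by 0.50 to 2.96 (median 1.35). The control level moved by -0.71 to 1.43 (median 0.01) and was above its 0 h level in 46 and below in 42. It stayed within 0.5 of the 0 h level in 66, was lower by at least that in 4 and higher by at least that in 18 (20.5%). Over all probe sets 0.405% had such a higher control level, and among the 108 probe sets that met the same late thresholds with an early mean of 0.6 or more, 0 did. These shares were not tested, since the late control arrays entered the choice.

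The 18 with a higher late level on control medium included XTH26 (0.96 on control, 2.45 on ACC), AT4G25790 (0.96 and 1.91), AT3G49960 (1.03 and 1.81), AT5G06630 (0.61 and 1.01) and AT4G07820 (0.55 and 2.96). XTH26 and AT3G49960 are known from root hairs. In all of these but AT5G06630 the late difference was smaller than the change that ACC roots showed from 0 h. In the opposite direction, the control level moved by -0.66 in AT5G39580 and by -0.50 in AT1G72900, and the ACC level by 1.87 and 1.50.

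**Figure D4:**
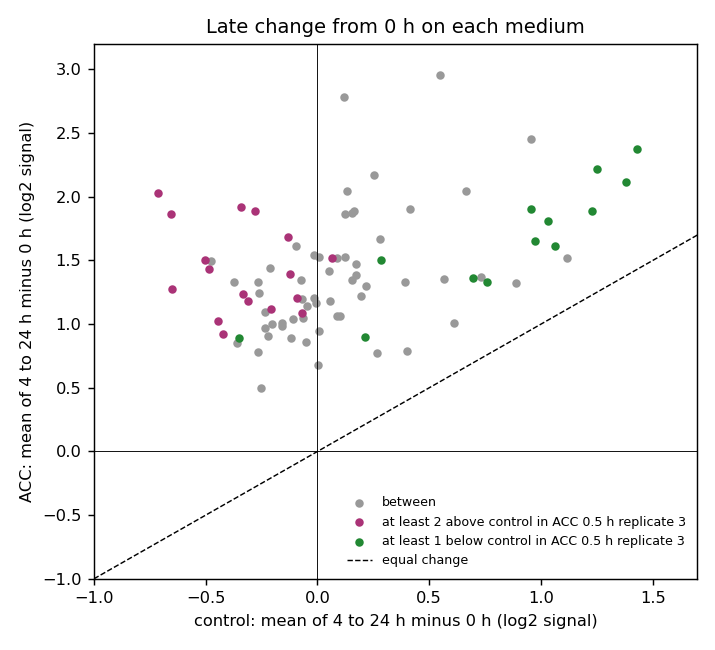
Each point is 1 of the 88 probe sets, with the mean log2 signal over 4 to 24 h minus that of 0 h on control medium (horizontal) and on ACC (vertical), coloured by its reading in replicate 3 of ACC at 0.5 h relative to the control mean, and a dashed line of equal change. All 88 lie above 0 on ACC, and 18 lie at 0.5 or more on control, of which 10 are among the 13 green points.

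At 0.5 h the ACC arrays disagreed over the 88. In replicate 3 of ACC their readings minus the control mean ran from -2.20 to 4.61 with an SD of 1.63, against 0.37 in replicate 1 and 0.63 in replicate 2. AT1G26380 read 8.09, 7.93 and 7.28 on control and 7.54, 7.29 and 12.31 on ACC at this time. AT5G39580 read 8.59, 8.51 and 8.74 against 9.31, 8.31 and 13.01, and AT1G72900 read 8.00, 8.10 and 7.61 against 8.27, 7.90 and 11.12. In each, 1 ACC array was far above the other 5 arrays, which lay together. With that array, 19 probe sets were at least 0.8 higher at 0.5 h and 9 at least 0.8 lower; without it, 3 and 7 were, and the median difference was 0.08 instead of 0.25.

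Grouped by that array, 17 probe sets read at least 2 above the control mean, 13 at least 1 below it and 58 between. The 17 included AT1G26380, AT5G39580, CCOAMT, AT1G72900, AT2G18690, BGLU46, AT3G13610, AT5G22555, AT1G36640, AT1G53440 and AT1G26240. The same 17 were raised in replicate 2 of the control at 12 and 24 h, the only times at which all 88 were compared in this way. That array exceeded the mean of the other 2 controls in 17 of 17 at 12 h (median 1.47) and in 17 of 17 at 24 h (median 0.98). It did so in 40 and 44 of the 58 (medians 0.23 and 0.24) and in 12 of the 13 at both times (0.34 and 0.24), so the direction was common to most of the 88 and the size was larger in the 17. Over all probe sets the medians were -0.02 and -0.01. The part of these single arrays in the late differences was not tested. At 1 h, replicate 1 was the highest control array in most of the 17, as in AT1G26380 (9.89 against 8.115 and 8.97). It was not in AT1G53440 (7.08, 7.28 and 7.75). The early bound averages 0.5, 1 and 2 h, where opposite differences offset each other. AT1G26380 had 1.28 at 0.5 h and -0.90 at 1 h, CCOAMT 1.40 and -0.40. The part of that control array in the choice was not tested.

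The 13 low ones included AT3G49960, PDF2.5, AT1G54890 and AT4G25790. Most were also low in replicate 2 of ACC at 0.5 h (median -1.64, beside -1.51 in replicate 3 and -0.13 in replicate 1), but AT1G54890 was 0.54 above control there. Of the 13, 10 were at least 0.5 above their 0 h level on control medium from 4 h on. Their median difference at 0 h was 0.60, against -0.23 in the 17 and 0.02 in the 58. The groups were formed from these readings, so no test is given.

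**Figure D5:**
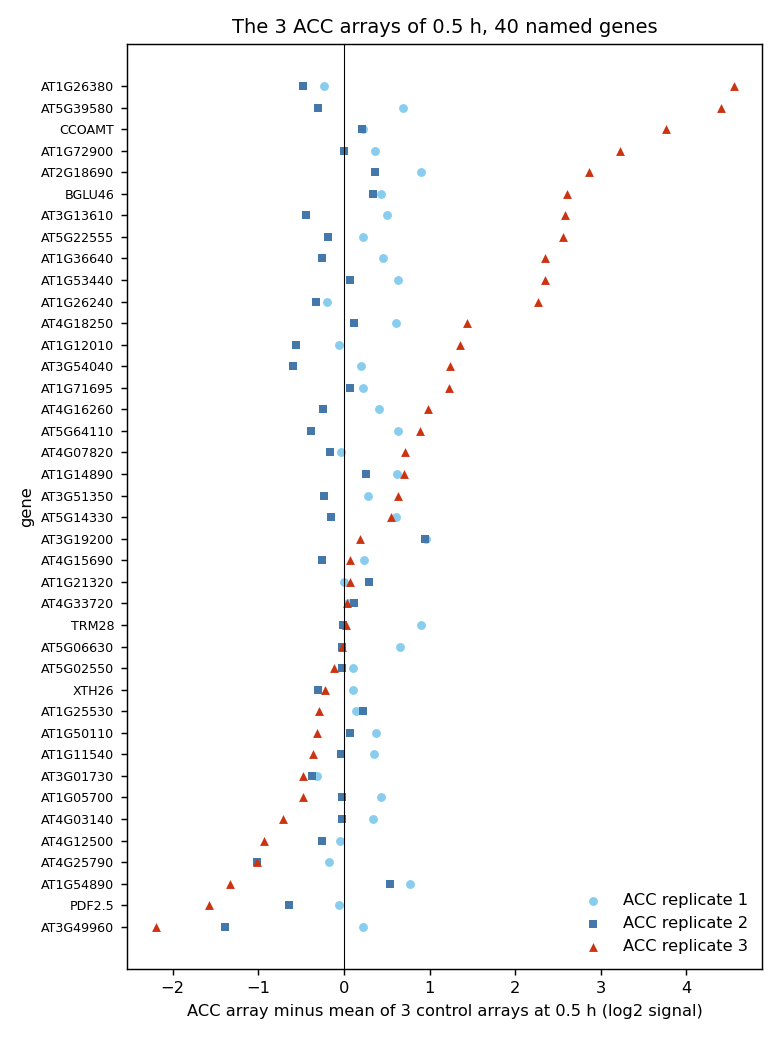
For the 40 named genes, each of the 3 ACC arrays of 0.5 h is plotted as log2 signal minus the mean of the 3 control arrays of that time. In replicate 3 (red triangles) 11 genes read at least 2 above control, up to 4.55 in AT1G26380, and 4 read at least 1 below, down to -2.20 in AT3G49960. The 11 stay closer to 0 in replicates 1 and 2, whereas AT4G25790 is about as low in replicate 2 (-1.015) as in replicate 3 (-1.017).

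Many members sat close to the thresholds. The named members nearest the late bound inside it were AT5G22555, AT4G33720 and AT5G06630, with lowest late differences of 0.815, 0.821 and 0.827, and those nearest outside it were AT3G03670 (0.799), AT4G12490 (0.794) and AT1G60010 (0.793). At the early bound, AT1G12010, AT1G11540 and AT1G54890 lay inside with means of 0.588, 0.575 and 0.540, and CYP71B29 (0.607), AT5G43180 (0.612) and CML38 (0.615) lay outside. Leaving out the arrays of 1 replicate number in turn kept 12 of the 88 in all 3 repeats, 42 in 2, 23 in 1 and 11 in none. Without replicate 1 the rule found 48 probe sets, of which 29 were among the 88. AT4G07820, AT3G54040, AT4G25790, AT1G21320, PDF2.5, BGLU46 and AT1G25530 were kept in all 3 repeats, while AT4G33720, which had the largest difference, was kept in 1.

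Among the RNA quality probe pairs, the first GAPDH pair moved most with the treatment. The difference between the 3' and 5' control probe sets for GAPDH was larger on ACC at each of the 7 times after transfer, by 0.29 on average and by 0.19 to 0.50 from 4 h on, and smaller by 0.18 at 0 h. At 24 h it was 1.21 ± 0.19 on ACC and 0.70 ± 0.35 on control (SD, n = 3). A second GAPDH set gave 0.03 on average, actin 0.09 and ubiquitin 0.08. With the first GAPDH difference as a covariate the rule found 90 probe sets, 60 of them among the 88, and the median difference at 24 h was 1.25 instead of 1.43.

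Related genes were followed with limma over all probe sets, where 1137 (5.0%) were higher and 1181 (5.19%) lower at 1 or more of the 4 late times. A listed gene is called measured here if it matched a probe set with 1 gene in the annotation. Of 24 listed ethylene signalling genes 5 were measured, none of them a member, and 2 rose. The others could not be followed and may be among the unnamed probe sets. Of the 22739 probe sets 8729 were not listed in the annotation, 46 of the 88 among them. RTE1, which acts on the receptor ETR1, rose by 1.08 to 1.50, and ARL, a growth regulator of the ARGOS family, by 2.03 to 2.43. EIN3, RTH and ETP2 did not pass, with differences from -0.16 to 0.18. Of 8 biosynthesis genes only AT1G12010 had such a match.

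Of 73 class III peroxidases 55 were measured, with 11 higher, 7 lower and 37 not called; the 4 members are among the 11, as the rule fixed their direction. The median difference over the 55 lay between -0.01 and 0.08 at the 4 late times, beside -0.014 to -0.003 over all probe sets. AT5G19890 reached 5.01 at 12 h and AT1G49570 4.35 at 24 h, above the 2.56 of AT5G39580, the highest single value of the 4 members, whereas AT2G35380 fell by 1.68 and AT5G51890 by 1.32 at 24 h. Without replicate 1, 10 of the 55 passed in place of 18. Of 22 CAP genes 19 were measured and 4 passed as higher. The 3 members were among them, as the rule fixed their direction, and the fourth was AT1G50060, which rose by 1.09 ± 0.30 (SE) at 24 h (limma, adjusted p = 0.0257); without replicate 1 only 1 passed and without replicate 2 only 2.

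Markers of cell types bear on which cells the RNA came from. Of 15 root hair markers 4 were measured, in the sense of a match to a probe set with 1 gene. XTH26 is itself a member, so its call rests on differences the rule used. Of the others, AT4G26010 (0.68 to 1.19, limma adjusted p = 0.0969 at 24 h), EXPA18 (0.42 to 0.85) and EXPA7 (0.43 to 0.96) did not pass, and without replicate 2 neither did XTH26. The 1 measured endodermis marker, GSO1, fell by 0.67 ± 0.16 (SE) at 24 h (limma, adjusted p = 0.00638), a call absent without replicate 1. Both measured shoot markers rose at 12 h, RCA by 1.32 ± 0.28 (limma, adjusted p = 0.00285) and LHCB4.2 by 0.65 ± 0.19 (adjusted p = 0.0329). At 8 h LHCB4.2 passed as well (0.65, limma adjusted p = 0.036) and RCA did not (0.91, adjusted p = 0.0553). Neither passed at 4 or 24 h. Without replicate 1 only 1 of them passed at any late time, and without replicate 2 none did. None of the listed xylem, phloem or root cap markers matched a probe set with 1 gene. The part of cell composition in the differences of the 88 was not tested.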

How the data were processed

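Per the labels' protocols, about 5 µg of total root RNA per sample was labelled with biotin by the Affymetrix 3' protocol. The deposited values, made by the authors, are taken as log2 signals because they run from 0 to about 15; neither log base nor probe summary or scaling is stated in the labels. Of 22810 probe sets, 64 controls and 7 with a 0 on an array were left out. Names came from the platform annotation, updated through Entrez identifiers (RefSeq, TAIR10.1): 13507 tested probe sets had 1 symbol, of which 13430 matched.

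Group means and differences were computed from these values. Tests used limma 3.58.1 in R 4.3.3, with 1 mean per group over 48 arrays (32 residual degrees of freedom, prior 3.99, median SE of a difference 0.140) and Benjamini-Hochberg adjustment. The number of arrays limits this precision. The fit was tested on simulated data. The members, lists and alternatives were chosen with earlier results of these data known, and the peroxidase and CAP lists were written after the others. Named by rule were the 16 one-gene members with the largest late difference, members on a list, those with the largest 4 to 24 h shifts and those nearest a threshold (21 genes). The role groups of members were assigned by hand from general knowledge of each gene, with values known; a search of other families by symbol or synonym found 1 member, XTH26. Promoter sequences were not used here.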

Additional observations from a re-analysis of the deposited data

Results flagged for a closer look

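The difference between the 3' and 5' GAPDH control probe sets, which no comparison of transcripts uses, was 0.294 larger on ACC than on control on average over the 7 times after transfer, and larger at 7 of 7. It is named because it is a signal in probe sets outside the main measurement that exceeded the level in control roots. Its part in the differences of the 88 probe sets was not tested beyond the covariate fit.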

How the results depend on the processing

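The spread between replicates was taken as the SD over same-numbered pairs of an ACC and a control array. Replicate numbers did not meet the bar for pairing described below, so this spread is only a yardstick. The median differences at 4, 8, 12 and 24 h moved by less than this spread under quantile normalization and the GAPDH covariate. They did so with each replicate number left out as well, but that says nothing about stability. A spread taken from the same 3 pairs is seldom exceeded when 1 of them is dropped. The rule also used these times. The median at 0 h, 0.018, ran from 0.012 to 0.084 with a replicate number left out and was 0.057 with the covariate. Without replicate 3 (0.084) and with the covariate it moved by more than its spread of 0.028. Membership changed with the settings: 137 probe sets met a late bound of 0.7, 42 a bound of 1.0 and 57 an early bound of 0.4. With a replicate number left out, 48 to 99 met the rule. Quantile normalization gave 90 (83 shared), the filter on low signals 87, and subtraction of the 0 h difference 68, of which 42 were shared. Other alternatives were added after the data were seen: without replicate 3 of ACC at 0.5 h there were 102 (84 shared), and with the covariate 90 (60 shared). The count at 0 h was 0 under all alternatives run. Of 105 late differences of the 21 genes named by rule, 101 moved by less than the spread between replicates. For a left-out replicate number this was fixed in advance, since dropping 1 of 3 values cannot move their mean by their SD. Those cases therefore say nothing about stability, and for AT4G12500 they ran from 0.65 to 2.18. The other 4 moved further under the covariate (CCOAMT 1.58, AT1G26380 1.08, AT1G72900 1.05, AT5G06630 0.67), and the cause was not tested. With replicate numbers left out, calls ran from 0 to 1 for root hair markers, 0 to 1 for the endodermis marker (0 with the covariate), 0 to 2 for shoot markers, 10 to 18 for peroxidases and 1 to 4 for CAP genes.

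Replicate numbers did not meet the bar for pairing, a correlation over 0.1 in every pair, over the series as a whole, although all 3 pairs met it at 1, 2 and 8 h. The correlation of same-numbered arrays' deviations ran from -0.26 to 0.41 (median 0.13), was over 0.1 in 16 of 24 pairs, and 15 of 24 ACC arrays correlated best with their own number, a hint from the data and not from the design. With the replicate block, 0 probe sets passed at 0 h, and 19 peroxidases and 5 CAP genes passed in place of 18 and 4. The medians (1.09 at 4 h) could not change, because each replicate number occurs once in every group.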
